A study of Mus musculus with 12 samples.

Results

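Chemokines are small secreted proteins that direct the migration of leukocytes. The chemokine ligand genes described here were the rows of a mouse expression table whose symbol begins with Ccl, Cxcl, Cx3cl or Xcl followed by a number and at most 1 letter. This rule found 38 of the 21881 genes in the table, and no measured value entered it. Polyadenylated RNA was sequenced from immortalized, monoclonal mouse bone marrow mesenchymal stem cell lines (MSCs) of the C57BL/6 strain, with 3 libraries in each of 4 groups. KO_let-7g cells were Dicer -/- and received a synthetic let-7g duplex, KO_siNr6a1 cells were Dicer -/- and received an siRNA against Nr6a1, KO_siCtrl cells were Dicer -/- and received a nontargeting control siRNA, and WT_siCtrl cells were Dicer f/f and received the same control siRNA. All 4 groups were transfected at 20 nM and collected after 48 hours. The labels do not say how many clones were used for each genotype, so loss of Dicer and differences between clones cannot be told apart. They also do not say whether the libraries of a group came from separate cultures, and the spread behind every p-value may therefore be technical.

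Dicer is the enzyme that cuts hairpin precursors into mature microRNAs, and let-7g is a microRNA of the let-7 family, which represses mRNAs that pair with its seed. Nr6a1 encodes an orphan nuclear receptor whose mRNA is a known let-7 target. Chemokines are grouped by the spacing of their first cysteines into CC (Ccl), CXC (Cxcl), CX3C (Cx3cl) and XC (Xcl) ligands, and they act through receptors on the responding cell. Many inflammatory chemokines are induced through NF-kB or interferon signalling, while Cxcl12 is made constitutively by stromal cells and holds blood stem cells in the bone marrow through its receptor Cxcr4.

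Levels are given as FPKM, fragments per kilobase of transcript relative to all mapped fragments of a library, as the authors deposited them, so levels can be compared between genes per length. Dicer1 had 2.88, 2.86 and 2.37 FPKM in KO_let-7g cells, 3.58, 2.82 and 3.04 FPKM in KO_siNr6a1 cells, 3.9, 3.63 and 4.06 FPKM in KO_siCtrl cells and 8.24, 5.58 and 5.93 FPKM in WT_siCtrl cells. Every KO library was below every WT library, but Dicer1 reads remained in the KO libraries, and gene-level FPKM does not show whether they cover the deleted part. Nr6a1 averaged 4.22 ± 1.04 FPKM in KO_let-7g, 3.68 ± 0.539 FPKM in KO_siNr6a1, 11.7 ± 1.32 FPKM in KO_siCtrl and 1.12 ± 0.158 FPKM in WT_siCtrl cells (SD, n = 3 each). The total number of reads is unknown, and the relative depth of the 12 libraries, read from the smallest FPKM steps, ran between 1 and 1.82, with 1.34 to 1.82 in KO_let-7g, 1.13 to 1.57 in KO_siNr6a1, 1 to 1.31 in KO_siCtrl and 1.11 to 1.29 in WT_siCtrl. The MSC label was checked with 10 markers, of which 9 were expressed and only Thy1 was not, with a summed level of 605 to 721 FPKM over the 12 libraries. Of 11 leukocyte markers only Cd68 was expressed, 2 (not the same genes in each group) were at 0 in all 3 libraries of a group, and the pan-leukocyte marker Ptprc did not exceed 0.0177 FPKM. The summed leukocyte markers were 4.79 to 7.15 FPKM in KO_let-7g, 1.85 to 2.03 FPKM in KO_siNr6a1, 2.04 to 3.08 FPKM in KO_siCtrl and 2.13 to 2.8 FPKM in WT_siCtrl libraries. Most of the KO_let-7g sum was Cd68 alone, with 4.34, 6.23 and 6.87 FPKM, so the sum does not show a rise of the list as a whole. None of 4 endothelial markers and 1 of 5 epithelial markers (Krt19) was expressed.

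A ligand was counted as expressed, and tested, where it had at least 1 FPKM in at least 3 libraries. This held for 15 of the 38 ligands (39.5%), against 53.9% of all genes in the table. They were 7 of 13 CXC ligands (Cxcl1, Cxcl3, Cxcl5, Cxcl10, Cxcl12, Cxcl14 and Cxcl16), 7 of 23 CC ligands (Ccl2, Ccl5, Ccl7, Ccl9, Ccl17, Ccl25 and Ccl27a) and the single CX3C ligand, Cx3cl1. Cxcl3 passed only through KO libraries, since it reached 1 FPKM in 7 libraries and in no WT_siCtrl library. Another 20 ligands were above 0 in at least 1 library without being expressed: Ccl1, Ccl3, Ccl4, Ccl6, Ccl8, Ccl11, Ccl12, Ccl19, Ccl20, Ccl21a, Ccl21b, Ccl21c, Ccl22, Ccl24, Cxcl2, Cxcl9, Cxcl11, Cxcl13, Cxcl15 and Cxcl17. The highest value of any of these was 0.717 FPKM, for Ccl20 in 1 KO_let-7g library. Ccl26, Ccl28 and Xcl1 were listed at 0 in all 12 libraries. The gap around the threshold was wide: the third highest library of the lowest ligands inside it had 2.86 FPKM for Cxcl3 and 3.31 FPKM for Cxcl16, against 0.474 FPKM for Ccl3 and 0.467 FPKM for Cxcl11 outside it. The Ccl21 copies are nearly identical to each other, and Ccl27a has near-identical copies, so their values depend on how shared reads were divided.

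Expressed ligands lay beside unexpressed ones. In the order of genes in RefSeq, Cxcl5, Cxcl3, Cxcl15, Cxcl1 and Cxcl2 lie close together on chromosome 5, and Cxcl5, Cxcl3 and Cxcl1 were expressed while Cxcl15 and Cxcl2 were not. On the same chromosome Cxcl10 was expressed between Cxcl9 and Cxcl11, which were not. On chromosome 11, Ccl2 and Ccl7 were expressed next to Ccl11, Ccl12, Ccl8 and Ccl1, and Ccl5 and Ccl9 next to Ccl6, Ccl3 and Ccl4. On chromosome 8, Cx3cl1 and Ccl17 were expressed beside Ccl22.

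Cxcl12 had the highest mean in each group, but the mixture around it differed. It made up 15.2% to 25.2% of the summed FPKM of all 38 ligands in KO_let-7g libraries, 26.1% to 34.4% in KO_siNr6a1, 30.00% to 38.2% in KO_siCtrl and 70.6% to 79.0% in WT_siCtrl libraries, where only the KO_siNr6a1 and KO_siCtrl ranges overlapped. The neutrophil-attracting CXC ligands, which signal through Cxcr2, made up 18.3% to 24.5%, 22.4% to 25.3% and 22.8% to 25.9% in those 3 KO groups, against 2.5% to 3.46% in WT_siCtrl. Ccl2 and Ccl7, monocyte-attracting ligands of Ccr2, made up 32.9% to 39.5% in KO_let-7g, 28.5% to 34.7% in KO_siNr6a1 and 21.8% to 24.8% in KO_siCtrl, against 7.58% to 13.4% in WT_siCtrl. In 2 of the 3 KO_let-7g libraries Ccl2, not Cxcl12, was the ligand with the highest level. Without Cxcl12, the summed ligand level was 592 to 751 FPKM in KO_let-7g, 873 to 1040.1 FPKM in KO_siNr6a1, 684 to 854 FPKM in KO_siCtrl and 231 to 293 FPKM in WT_siCtrl libraries.

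**Figure D1:**
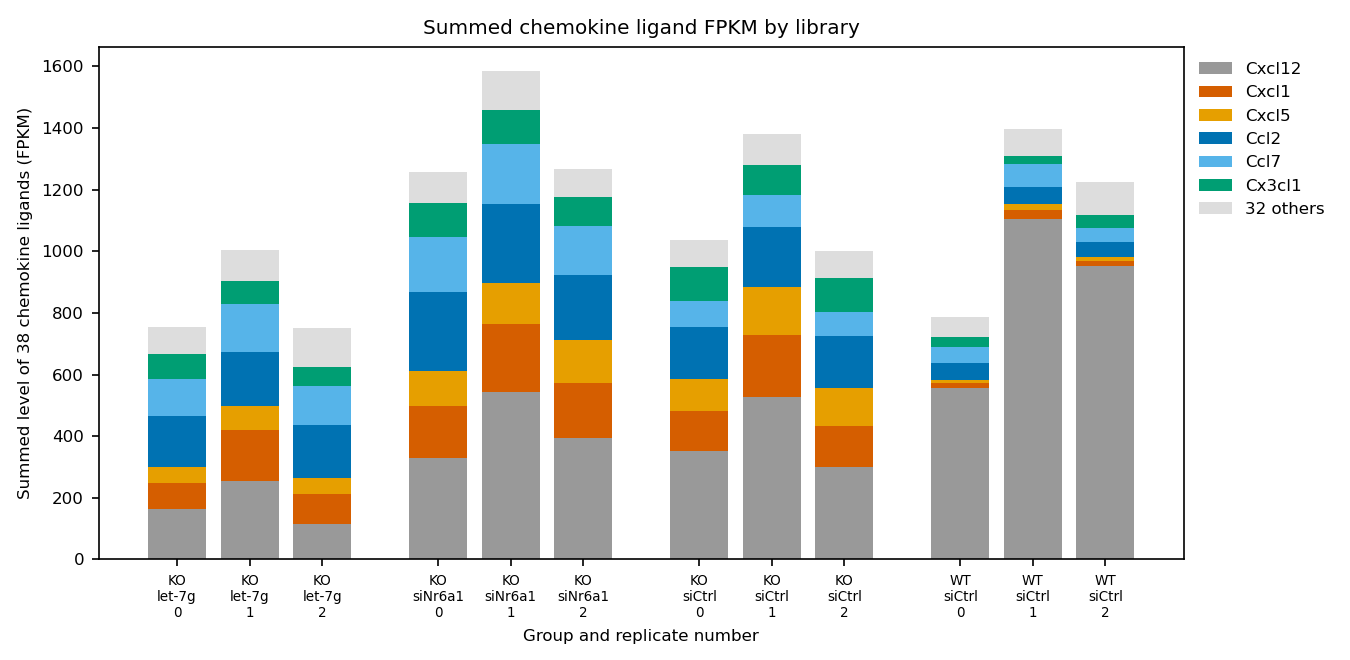
Summed FPKM of the 38 chemokine ligands (y axis) in each of the 12 libraries (x axis, group and replicate number), divided into 6 named ligands and the 32 others. Cxcl12 fills 70.6% to 79.0% of each WT_siCtrl bar and 15.2% to 38.2% of the KO bars.

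The order of the other ligands also differed between groups. In KO_let-7g cells the means were 176 ± 70.5 FPKM for Cxcl12, 170.4 ± 5.77 FPKM for Ccl2, 134 ± 17.7 FPKM for Ccl7 and 116 ± 43.8 FPKM for Cxcl1 (SD, n = 3); the libraries overlapped between Cxcl12 and Ccl2 and between Ccl7 and Cxcl1, but not between Ccl2 and Ccl7. In KO_siNr6a1 cells Cxcl12 (422 ± 111 FPKM) lay above Ccl2 (242 ± 27.9 FPKM) without overlap, while Ccl2, Cxcl1 (189 ± 27.8 FPKM) and Ccl7 (177 ± 17.5 FPKM) each overlapped the next. In KO_siCtrl cells the order was Cxcl12 (394 ± 119 FPKM), Ccl2 (178 ± 16.5 FPKM), Cxcl1 (154 ± 39.96 FPKM), Cxcl5 (127 ± 26.5 FPKM) and Cx3cl1 (106 ± 7.59 FPKM), and from Ccl2 downward each overlapped its neighbour. In WT_siCtrl cells Cxcl12 (870.3 ± 283 FPKM) stood alone, followed by Ccl7 (56.5 ± 16.4 FPKM), Ccl2 (53.0 ± 3.98 FPKM) and Cx3cl1 (34.9 ± 7.29 FPKM), with overlap only between Ccl7 and Ccl2 among these 4. Cxcl14 (23.9 ± 6.86 FPKM) came next in WT_siCtrl cells, above Cxcl1 (21.1 ± 7.87 FPKM) and Cxcl5 (14.0 ± 3.45 FPKM), and it overlapped Cx3cl1, Cxcl1 and Cxcl5. Ccl25, Ccl9, Ccl27a, Ccl17, Cxcl16 and Cxcl3 did not exceed 19.6 FPKM in any library, a value reached by Ccl25 in KO_siCtrl cells.

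**Figure D2:**
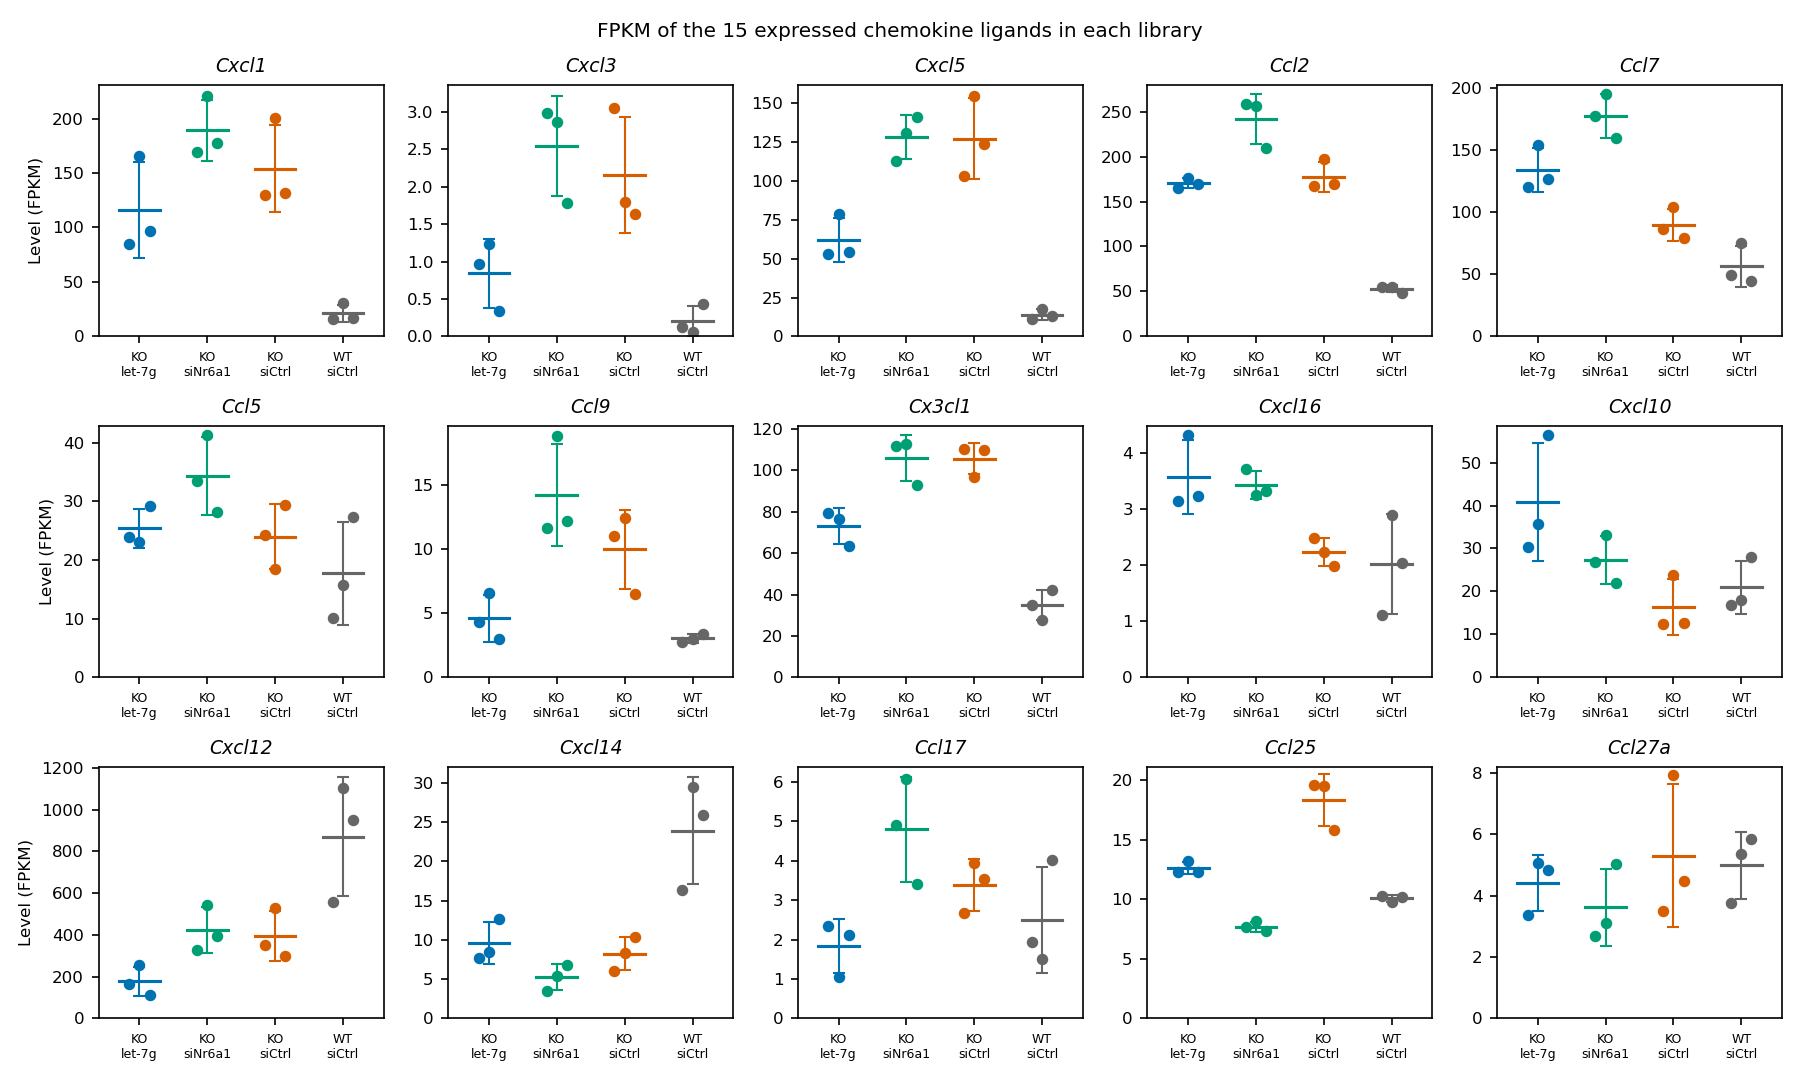
FPKM (y axis, linear, a scale of its own for each gene) of the 15 expressed chemokine ligands in the 4 groups (x axis); points are libraries, bars the mean and whiskers the SD (n = 3). Cxcl1, Cxcl5 and Ccl2 are higher in every KO library than in every WT_siCtrl library, and Cxcl12 and Cxcl14 are lower.

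Differences between groups were tested with limma on log2(FPKM + 1) over all genes, with the threshold for a call set at an adjusted p of 0.05. Differences are given below as log2 values ± standard error, on a scale that understates those of genes with low FPKM. More expressed ligands were higher than lower in the cells without Dicer: in KO_siCtrl against WT_siCtrl cells 10 of the 15 were called, 8 higher (Cxcl5, Cxcl1, Ccl2, Cx3cl1, Ccl9, Cxcl3, Ccl25 and Ccl7) and 2 lower (Cxcl14 and Cxcl12). Among all 11801 genes tested 54.3% were called, 29.1% higher and 25.2% lower. The median difference was 0.69 over the 15 ligands and 0.04 over all genes. Cxcl3 entered the test only through KO libraries; over the 14 ligands that reached 1 FPKM in both genotypes 9 were called, 7 higher and 2 lower, with a median of 0.59. With bulk RNA, a change in the share of cells that make a ligand and a change in its RNA per cell cannot be told apart.

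The let-7g duplex went with lower levels of 6 ligands and higher levels of 2. In KO_let-7g against KO_siCtrl cells Cxcl12, Cxcl5, Ccl9, Cxcl3, Cx3cl1 and Ccl25 were lower and Cxcl10 and Ccl7 higher, 8 of 15 called in all. This count includes Cxcl3, which passed the filter mainly through KO_siCtrl and KO_siNr6a1 libraries, where it was higher. Of all genes 45.6% were called, 27.5% higher and 18.2% lower, and the median difference was -0.44 over the 15 ligands and 0.08 over all genes. The split of all genes, 3241 higher and 2142 lower, was 2600 higher and 2615 lower after quantile scaling, under which the ligands split into 2 higher and 7 lower. Cd68 was also higher in KO_let-7g cells, at 5.81 ± 1.32 FPKM against 1.84 ± 0.453 FPKM in KO_siCtrl cells (SD, n = 3 each; difference 1.26 ± 0.17, limma adjusted p = 0.000133), while Ptprc and the other 9 leukocyte markers were under 1 FPKM in every library, and their part in the ligand differences was not tested.

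The siRNA against Nr6a1 went with fewer calls. Against KO_siCtrl, 3 of 15 ligands were called in KO_siNr6a1 cells, Ccl7 and Ccl2 higher and Ccl25 lower, beside 29.4% of all genes (13.2% higher and 16.3% lower). The median difference was 0.31 over the 15 ligands and -0.06 over all genes. With the replicate number as a block, which also takes out what libraries of the same number share, 5 ligands were called, adding Cxcl1 and Cxcl14. All genes called rose as well, to 5248 of 11801 with the block, against 3474 without it. In KO_let-7g against KO_siCtrl cells the block gave 10 called ligands, against 8, beside 6878 of all genes, against 5383. The treatments share their KO_siCtrl libraries with each other and with the comparison of genotypes, so their values are set side by side below and likeness between them was not measured.

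Set against each other, KO_let-7g and KO_siNr6a1 cells differed in 9 of 15 ligands: Ccl9, Cxcl12, Cxcl5, Ccl17, Cxcl3, Cx3cl1 and Ccl2 were lower in KO_let-7g cells and Ccl25 and Cxcl14 higher. Cxcl3, counted here, passed the filter mainly through KO_siNr6a1 and KO_siCtrl libraries, where it was higher. Among all genes 40.9% were called, 27.6% higher and 13.3% lower. The median difference was -0.50 over the 15 ligands and 0.12 over all genes. The median of all genes moved by -0.12 under median of ratios scaling, which turned the split of all calls from 3262 higher and 1564 lower into 2129 higher and 2260 lower. Relative to the median of all genes, Ccl9 differed by -1.58, Cxcl12 by -1.42, Cxcl5 by -1.18, Ccl17 by -1.16, Cxcl3 by -1.08, Cx3cl1 by -0.66, Ccl2 by -0.62, Ccl25 by 0.52 and Cxcl14 by 0.64. Under that scaling 9 ligands were called lower and 1 higher. With the replicate block 11 ligands were called, beside 6461 of all genes, against 4826 without it.

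**Figure D3:**
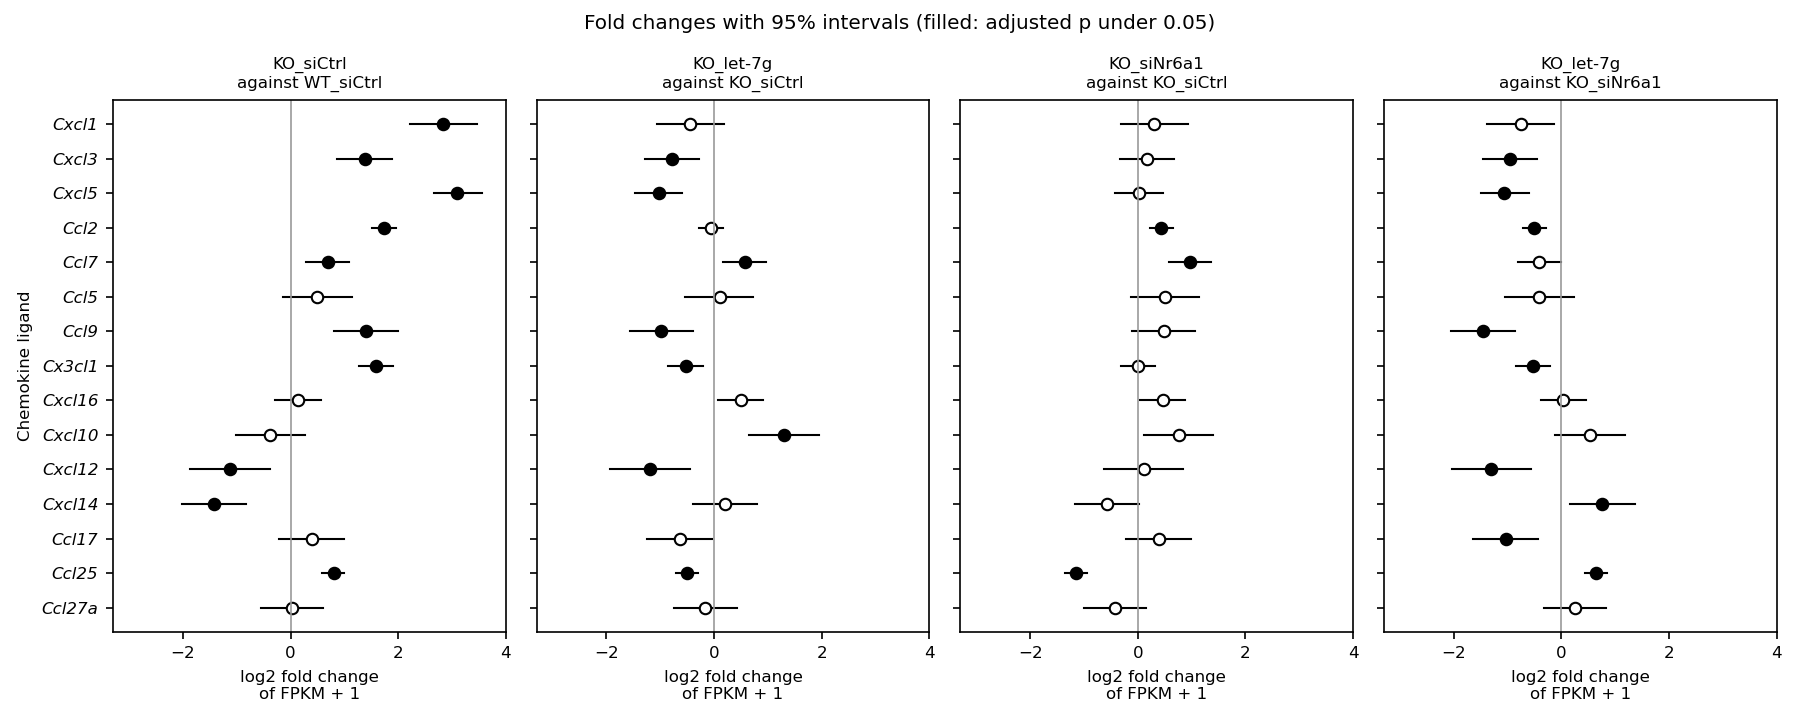
Log2 differences of FPKM + 1 (x axis) for the 15 expressed chemokine ligands (y axis) in 4 comparisons (panels), with 95% intervals from limma; filled points have an adjusted p under 0.05. Cxcl5 and Cxcl1 lie farthest to the right in KO_siCtrl against WT_siCtrl cells, at 3.10 and 2.84; Cxcl3 entered the test only through KO libraries.

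Among the neutrophil-attracting ligands, which recruit neutrophils through Cxcr2, 3 of 5 were expressed. Of the 14 ligands at 1 FPKM in both genotypes, Cxcl5 and Cxcl1 had the highest ratios of mean FPKM in KO_siCtrl over WT_siCtrl cells. These ratios were 9.11 and 7.32. Cxcl3 is left out of this ranking, since it passed the filter only through KO libraries. Cxcl5 had 52.9, 78.5 and 54.5 FPKM in KO_let-7g, 113, 131 and 141 FPKM in KO_siNr6a1, 103, 155 and 124 FPKM in KO_siCtrl and 11.0, 17.8 and 13.2 FPKM in WT_siCtrl libraries. The KO_let-7g libraries lay between the other KO groups and WT_siCtrl and overlapped none of them. The difference was 3.10 ± 0.20 in KO_siCtrl against WT_siCtrl cells (adjusted p = 3.6e-07), -1.03 ± 0.20 in KO_let-7g against KO_siCtrl cells (adjusted p = 0.00172), and 0.03 ± 0.20 in KO_siNr6a1 against KO_siCtrl cells, with a 95% interval of -0.42 to 0.47 (adjusted p = 0.939).

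Cxcl1 had 84.4, 166 and 97.2 FPKM in KO_let-7g, 169, 221 and 178 FPKM in KO_siNr6a1, 130.1, 200.4 and 132 FPKM in KO_siCtrl and 16.1, 30.2 and 17.0 FPKM in WT_siCtrl libraries. Replicate 1 was the highest in all 4 groups, and the KO_siCtrl and WT_siCtrl libraries did not overlap (2.84 ± 0.29, adjusted p = 1.04e-05). Neither treatment passed the test against KO_siCtrl: the difference was -0.44 (95% interval -1.07 to 0.18, adjusted p = 0.23) in KO_let-7g cells and 0.31 (-0.32 to 0.94, adjusted p = 0.452) in KO_siNr6a1 cells. With the replicate block the adjusted p was 0.0046 for KO_let-7g and 0.0336 for KO_siNr6a1. Between the treatments Cxcl1 differed by -0.75 ± 0.29 in KO_let-7g against KO_siNr6a1 cells (adjusted p = 0.0546, and 0.000284 with the block), with no overlap between their libraries. It passed without KO_let-7g replicate 1 (-1.04, adjusted p = 0.0129), without KO_siCtrl replicate 1 (0.0491) or without WT_siCtrl replicate 1 (0.0329). This difference also passed with quantile (0.0453), upper quartile (0.0425) and median of ratios scaling (0.0275). The same held with library weights (0.0154) and with only the groups compared (0.0498).

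Cxcl3 had 0.962, 1.23 and 0.337 FPKM in KO_let-7g, 2.99, 2.86 and 1.78 FPKM in KO_siNr6a1, 3.05, 1.79 and 1.64 FPKM in KO_siCtrl and 0.124, 0.0531 and 0.428 FPKM in WT_siCtrl libraries. Its mean in KO_siCtrl cells was 10.7 times that in WT_siCtrl cells, and the libraries of these groups did not overlap. Since it passed the filter only through KO libraries, its test between genotypes is given with no filter on low values (1.38, adjusted p = 0.00151). In that fit every gene above 0 in at least 1 library enters. The difference was 3.05 with a pseudocount of 0.1 in place of 1. Among the KO_let-7g libraries only the one at 1.23 FPKM reached the filter's limit, while every KO_siCtrl and KO_siNr6a1 library did. Cxcl3 thus entered the tests of KO_let-7g mainly through groups where it was higher, which limits them as support. In KO_let-7g against KO_siCtrl cells it fell by 0.78 ± 0.23 (adjusted p = 0.0166), with no overlap. That call held with no filter on low values. It did not pass without KO_let-7g replicate 2 (adjusted p = 0.0674) or without KO_siCtrl replicate 0 (0.07). Cxcl2 reached 0.222 FPKM at most and Cxcl15 0.0782 FPKM. Ppbp, a related Cxcr2 ligand precursor that the name rule does not find, averaged 1.44 ± 0.137 FPKM in KO_let-7g, 2.62 ± 0.226 FPKM in KO_siNr6a1, 3.65 ± 0.97 FPKM in KO_siCtrl and 0.217 ± 0.109 FPKM in WT_siCtrl cells (SD, n = 3 each), and it was lower in KO_let-7g against KO_siCtrl cells (-0.91, adjusted p = 0.000429). It too reached 1 FPKM only in KO libraries, and with no filter its difference between KO_siCtrl and WT_siCtrl cells was 1.91 (adjusted p = 7.72e-06). Pf4, which the rule also does not find, stayed at or below 0.885 FPKM.

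Promoter windows are shown for ligands in which a kappaB motif, the DNA element bound by NF-kB, was found: Cxcl1, Cxcl3 and Ccl9, which were expressed, and Cxcl2, the unexpressed neighbour of Cxcl1. The promoter of Cxcl5 was not used here. The motif, GGG followed by any 2 bases and then TTTCC, on either strand, was looked for in RefSeq promoters of GRCm38.p6, from 250 bases before to 50 bases after a start. It was found in 535 of 32851 promoters (1.63%). Counted by gene, with a match in any of its promoters, it was found in 3 of the 10 expressed ligands in the table (Cxcl1, Cxcl3 and Ccl9), in 2 of the 16 others (Cxcl2 and Ccl20) and in 177 of 8233 tested genes (2.15%). The windows below run from 110 to 21 bases before the start, written 5′ to 3′ on the gene's strand with matches in capitals. They are chr5:90891135-90891224 (+) for Cxcl1, chr5:90785991-90786080 (+) for Cxcl3, chr5:90903789-90903878 (+) for Cxcl2 and chr11:83578657-83578746 (-) for Ccl9.
Cxcl1: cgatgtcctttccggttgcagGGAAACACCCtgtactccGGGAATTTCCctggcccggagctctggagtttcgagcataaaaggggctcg
Cxcl3: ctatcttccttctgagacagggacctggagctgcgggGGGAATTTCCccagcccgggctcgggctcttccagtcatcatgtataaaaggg
Cxcl2: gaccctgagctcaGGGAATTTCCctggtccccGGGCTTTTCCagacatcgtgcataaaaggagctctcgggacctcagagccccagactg
Ccl9: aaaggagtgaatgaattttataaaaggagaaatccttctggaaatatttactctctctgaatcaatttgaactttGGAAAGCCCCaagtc
The matches begin 89 and 71 bases before the start in Cxcl1, 73 in Cxcl3, 97 and 78 in Cxcl2, and 35 in Ccl9. The match at 89 in Cxcl1 and the match in Ccl9 are on the opposite strand, and the others are on the gene's own strand. Cxcl2 held 2 matches and was not expressed, so the match was found in expressed and unexpressed ligands. A match is a description of the letters and not a measured binding site.

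Ccl2 and Ccl7, neighbours on chromosome 11, both attract monocytes through Ccr2. Ccl2 had 165, 176 and 169.8 FPKM in KO_let-7g, 259, 256 and 209.6 FPKM in KO_siNr6a1, 167, 197 and 169 FPKM in KO_siCtrl and 55.3, 55.2 and 48.4 FPKM in WT_siCtrl libraries. The KO_let-7g and KO_siCtrl libraries overlapped, the KO_siNr6a1 libraries were above both, and the WT_siCtrl libraries were far below. Against KO_siCtrl cells the difference was 0.44 ± 0.10 in KO_siNr6a1 cells (adjusted p = 0.00743) and -0.06 in KO_let-7g cells, with a 95% interval of -0.28 to 0.16 (adjusted p = 0.674). KO_let-7g and KO_siNr6a1 cells differed by -0.50 ± 0.10 (adjusted p = 0.00256).

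Ccl7 had 120.2, 154 and 127 FPKM in KO_let-7g, 177, 195 and 159.9 FPKM in KO_siNr6a1, 86.4, 104 and 79.1 FPKM in KO_siCtrl and 49.7, 75.2 and 44.5 FPKM in WT_siCtrl libraries. No 2 groups overlapped, and the order was KO_siNr6a1, KO_let-7g, KO_siCtrl and WT_siCtrl from the highest. In KO_siCtrl against WT_siCtrl cells Ccl7 rose by 0.69 ± 0.18 (adjusted p = 0.00738), a call lost with library weights (0.42, adjusted p = 0.0572). It rose by 0.98 ± 0.18 in KO_siNr6a1 against KO_siCtrl cells (adjusted p = 0.00244). In KO_let-7g against KO_siCtrl cells it rose by 0.57 ± 0.18 (adjusted p = 0.0241), and this call was lost with no filter on low values (adjusted p = 0.052), without KO_let-7g replicate 1 (0.0909), without KO_siCtrl replicate 0 (0.0658) and without KO_siCtrl replicate 2 (0.0833). The difference between KO_let-7g and KO_siNr6a1 cells was -0.41 ± 0.18 (adjusted p = 0.0932, 0.00482 with the replicate block and 0.0281 without WT_siCtrl replicate 1). It also passed with median of ratios scaling (-0.55, adjusted p = 0.0326) and with only the groups compared (0.0306). The other monocyte and eosinophil ligands, grouped here by the receptors Ccr2 and Ccr3, were close to silent. Ccl8 reached 0.55 FPKM, Ccl11 0.112 FPKM, Ccl24 0.0563 FPKM and Ccl12 0.0076 FPKM at most, and Ccl26 was listed at 0.

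Ccl9 and Ccl5 are inflammatory CC ligands that act on Ccr1. Ccl9 had 4.28, 6.56 and 2.97 FPKM in KO_let-7g, 11.6, 18.8 and 12.2 FPKM in KO_siNr6a1, 11.0, 12.4 and 6.52 FPKM in KO_siCtrl and 2.74, 2.98 and 3.4 FPKM in WT_siCtrl libraries. It rose by 1.40 ± 0.27 in KO_siCtrl against WT_siCtrl cells (adjusted p = 0.00106), with no overlap. It fell by 0.98 ± 0.27 in KO_let-7g against KO_siCtrl cells (adjusted p = 0.0114), where 1 library of each group overlapped, and by 1.46 ± 0.27 in KO_let-7g against KO_siNr6a1 cells (adjusted p = 0.00149). In KO_let-7g against WT_siCtrl cells the difference was 0.42, with a 95% interval of -0.16 to 1.01 (adjusted p = 0.197).

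Ccl5 had 24.0, 23.0 and 29.2 FPKM in KO_let-7g, 33.5, 41.3 and 28.2 FPKM in KO_siNr6a1, 24.2, 18.4 and 29.4 FPKM in KO_siCtrl and 10.05, 15.8 and 27.3 FPKM in WT_siCtrl libraries. WT_siCtrl replicate 2 lay within the range of the KO_siCtrl libraries, and the difference of 0.50 (95% interval -0.14 to 1.14) between KO_siCtrl and WT_siCtrl cells did not pass (adjusted p = 0.167), although it passed without that library (0.85, adjusted p = 0.0118). Neither treatment passed against KO_siCtrl, with differences of 0.10 in KO_let-7g cells (-0.54 to 0.73, adjusted p = 0.813) and 0.51 in KO_siNr6a1 cells (-0.13 to 1.14, adjusted p = 0.214). Ccl3, Ccl4 and Ccl6, the other ligands of this kind, reached 0.664, 0.279 and 0.0536 FPKM at most.

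Cx3cl1, or fractalkine, is made as a membrane-anchored adhesion molecule and is also shed as a soluble attractant for Cx3cr1-bearing cells. It had 79.6, 76.5 and 63.3 FPKM in KO_let-7g, 112, 113 and 93.1 FPKM in KO_siNr6a1, 110.4, 97.0 and 109.8 FPKM in KO_siCtrl and 35.1, 27.5 and 42.0 FPKM in WT_siCtrl libraries. The WT_siCtrl libraries were the lowest, the KO_let-7g libraries were next, and the other KO groups overlapped each other. It rose by 1.59 ± 0.15 in KO_siCtrl against WT_siCtrl cells (adjusted p = 5.17e-06) and fell by 0.53 ± 0.15 in KO_let-7g against KO_siCtrl cells (adjusted p = 0.0119). For KO_siNr6a1 against KO_siCtrl cells the 95% interval of the difference was -0.32 to 0.32 (adjusted p = 0.998). Between KO_let-7g and KO_siNr6a1 cells it fell by 0.53 ± 0.15 (adjusted p = 0.0136), by 0.34 with library weights, and did not pass without KO_let-7g replicate 2 (adjusted p = 0.0565).

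Cxcl10 is an interferon-induced ligand of Cxcr3, the receptor of activated T cells. It had 30.4, 35.6 and 56.3 FPKM in KO_let-7g, 26.8, 33.1 and 21.9 FPKM in KO_siNr6a1, 12.4, 23.8 and 12.6 FPKM in KO_siCtrl and 16.9, 18.0 and 28.1 FPKM in WT_siCtrl libraries. Every KO_let-7g library was above every KO_siCtrl library (1.29 ± 0.29, adjusted p = 0.00426), while the KO_siCtrl and WT_siCtrl libraries overlapped (-0.38, 95% interval -1.02 to 0.27, adjusted p = 0.302). The difference of 0.76 ± 0.29 in KO_siNr6a1 against KO_siCtrl cells did not pass (adjusted p = 0.0753) but did without KO_siCtrl replicate 1 (1.05, adjusted p = 0.0221). KO_let-7g and KO_siNr6a1 cells were not shown to differ (0.53, 95% interval -0.11 to 1.18, adjusted p = 0.17), except with library weights (0.60, adjusted p = 0.0287). Cxcl9 and Cxcl11, which use the same receptor and are also interferon-induced, did not follow Cxcl10 above the limit for expression, with at most 0.415 and 0.574 FPKM. Cxcl9 was at 0, 0 and 0.0372 FPKM in KO_siCtrl and 0.167, 0.415 and 0.289 FPKM in WT_siCtrl libraries, and with no filter on low values it was called lower in KO_siCtrl cells (-0.35, adjusted p = 0.00322).

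Cxcl12, the ligand of Cxcr4 and Cxcr7, had 163, 253 and 114 FPKM in KO_let-7g, 328, 544 and 394 FPKM in KO_siNr6a1, 353, 528 and 300.5 FPKM in KO_siCtrl and 556, 1104 and 952 FPKM in WT_siCtrl libraries. Replicate 1 was the highest library in all 4 groups. The KO_let-7g libraries were all below the KO_siCtrl libraries, which were all below the WT_siCtrl libraries, and the KO_siNr6a1 and KO_siCtrl libraries overlapped. Cxcl12 fell by 1.13 ± 0.34 in KO_siCtrl against WT_siCtrl cells (adjusted p = 0.0146), but not past the threshold without KO_siCtrl replicate 2 (adjusted p = 0.0569) or without WT_siCtrl replicate 1 (0.0624). It fell by 1.19 ± 0.34 in KO_let-7g against KO_siCtrl cells (adjusted p = 0.0138), and this too was lost without KO_let-7g replicate 2 (0.0572) or without KO_siCtrl replicate 1 (0.0573). The mean in KO_let-7g cells was 0.203 times that in WT_siCtrl cells, a difference of -2.31 ± 0.34 (adjusted p = 0.000148). The siRNA against Nr6a1 gave a difference of 0.11 from KO_siCtrl cells, with a 95% interval of -0.63 to 0.85 (adjusted p = 0.842), and KO_let-7g cells were 1.30 ± 0.34 below KO_siNr6a1 cells (adjusted p = 0.0101).

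The seed of let-7g is shown because Cxcl12 and Cxcl16 were the only expressed ligands whose longest annotated 3′ untranslated region holds its 7-base match. The mature sequence of mmu-let-7g-5p in RefSeq lies at chr9:106178846-106178867 (+, GRCm38.p6); its seed, bases 2 to 8, is in capitals, and the sequence of the transfected duplex itself was not used here.
mmu-let-7g-5p: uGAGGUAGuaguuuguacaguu
The match, CTACCTC, was searched in the longest 3′ untranslated region of each protein-coding gene in GENCODE M21 (GRCm38). Other transcripts of a gene were not searched. The match is shown in capitals with the bases around it. It lies at bases 3488 to 3494 of 5188 in Cxcl12 and at bases 177 to 183 of 1421 in Cxcl16.
Cxcl12: tgaactacCTACCTCtcctcaag
Cxcl16: ctttgcctCTACCTCctagattc
Thus 2 of 15 expressed ligands (13.3%) held the match, against 1063 of 10211 tested genes with such a region (10.4%). The shorter match to bases 2 to 7 of the seed was also in 2 of the 15 ligands (13.3%), against 2690 of the 10211 genes (26.3%). Cxcl12 was called lower in KO_let-7g against KO_siCtrl cells, whereas Cxcl16 was not, and its difference was positive. The ligands' 3′ regions were short, with a median of 645 bases against 1192 over all tested genes. The element ATTTA, found in many unstable mRNAs, occurred at least 5 times in Cxcl1, Cxcl3, Cxcl5 and Ccl9, which is 26.7% of the 15, against 23.6% of all tested genes.

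Cxcl16, made as a membrane-bound ligand of Cxcr6, had 3.14, 4.32 and 3.23 FPKM in KO_let-7g, 3.71, 3.24 and 3.31 FPKM in KO_siNr6a1, 2.47, 2.23 and 1.98 FPKM in KO_siCtrl and 1.11, 2.89 and 2.04 FPKM in WT_siCtrl libraries. Both treated groups lay above KO_siCtrl without overlap, but neither passed: the difference was 0.49 ± 0.19 in KO_let-7g cells (adjusted p = 0.0529) and 0.46 ± 0.19 in KO_siNr6a1 cells (adjusted p = 0.0941). These p-values depended on WT_siCtrl libraries that enter only through the shared spread, since without WT_siCtrl replicate 0 they were 0.00999 and 0.0224, and without WT_siCtrl replicate 1 0.022 and 0.0454. With only the groups compared the adjusted p was 0.0197 in KO_let-7g and 0.0158 in KO_siNr6a1 cells against KO_siCtrl. With library weights it was 0.032 and 0.033. With the replicate block KO_let-7g against KO_siCtrl passed (adjusted p = 0.0367).

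Cxcl14, a ligand made constitutively in many epithelial and stromal tissues, had 7.72, 8.44 and 12.6 FPKM in KO_let-7g, 3.54, 5.45 and 6.85 FPKM in KO_siNr6a1, 6.05, 8.35 and 10.3 FPKM in KO_siCtrl and 16.3, 29.5 and 25.9 FPKM in WT_siCtrl libraries. The WT_siCtrl libraries were above all KO libraries, and it fell by 1.42 ± 0.27 in KO_siCtrl against WT_siCtrl cells (adjusted p = 0.00113). The difference from KO_siCtrl was 0.20 in KO_let-7g cells (95% interval -0.40 to 0.80, adjusted p = 0.59) and -0.57 in KO_siNr6a1 cells (-1.17 to 0.03, adjusted p = 0.143, and 0.00563 with the replicate block). It was called higher in KO_let-7g than in KO_siNr6a1 cells (0.76 ± 0.27, adjusted p = 0.044). That call was lost with no filter (0.0923), with quantile (0.0986) and median of ratios scaling (0.0785), with library weights (0.116), and without any 1 of KO_let-7g replicates 1 (0.0657) and 2 (0.159), KO_siNr6a1 replicates 0 (0.158) and 1 (0.0769), KO_siCtrl replicate 1 (0.057) and WT_siCtrl replicate 2 (0.0527).

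The remaining expressed CC ligands were at low levels. Ccl25, known as the thymus and gut ligand of Ccr9, had 12.3, 13.2 and 12.3 FPKM in KO_let-7g, 7.62, 8.14 and 7.3 FPKM in KO_siNr6a1, 19.6, 19.5 and 15.8 FPKM in KO_siCtrl and 10.3, 9.74 and 10.2 FPKM in WT_siCtrl libraries. No 2 groups overlapped. It rose by 0.80 ± 0.09 in KO_siCtrl against WT_siCtrl cells (adjusted p = 2.94e-05) and fell by 0.50 ± 0.09 in KO_let-7g (adjusted p = 0.00114) and by 1.15 ± 0.09 in KO_siNr6a1 cells (adjusted p = 2.86e-05) against KO_siCtrl. Between the treatments it was 0.65 ± 0.09 higher in KO_let-7g than in KO_siNr6a1 cells (adjusted p = 0.000315). Ccl25 overlaps Elavl1 on the opposite strand, and it is not known whether reads were counted by strand; Elavl1 averaged 28.9 ± 1.94 FPKM in KO_let-7g, 31.8 ± 1.9 FPKM in KO_siNr6a1, 36.7 ± 2.26 FPKM in KO_siCtrl and 28.7 ± 0.817 FPKM in WT_siCtrl cells (SD, n = 3 each), so it too was highest in KO_siCtrl, and its part in the Ccl25 values was not tested.

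Ccl17, a Ccr4 ligand that attracts T cells, had 2.35, 1.06 and 2.12 FPKM in KO_let-7g, 4.9, 6.09 and 3.42 FPKM in KO_siNr6a1, 2.67, 3.95 and 3.53 FPKM in KO_siCtrl and 1.93, 1.51 and 4.02 FPKM in WT_siCtrl libraries. The KO_let-7g libraries were below the KO_siCtrl libraries without overlap, a difference of -0.64 ± 0.28 that did not pass (adjusted p = 0.0771) but did after quantile scaling (0.0328), with only the groups compared (0.0429) and without WT_siCtrl replicate 2 (0.0347). KO_let-7g and KO_siNr6a1 cells differed by -1.03 ± 0.28 (adjusted p = 0.0116). In KO_siCtrl against WT_siCtrl cells the difference was 0.39 (95% interval -0.22 to 0.99, adjusted p = 0.261), and 0.68 (adjusted p = 0.0399) without WT_siCtrl replicate 2. Ccl27a, the Ccr10 ligand best known from skin, was between 2.69 and 7.93 FPKM in all 12 libraries and was called in no comparison; the adjusted p was 0.64 for KO_let-7g and 0.263 for KO_siNr6a1 against KO_siCtrl and 0.939 for KO_siCtrl against WT_siCtrl. It overlaps Il11ra1 on the opposite strand, which averaged 7.61 to 11.4 FPKM over the 4 groups.

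The treated KO groups were also set against the cells with Dicer. In KO_let-7g against WT_siCtrl cells 11 of 15 ligands were called, 9 higher and 2 lower, beside 58.2% of all genes (35.3% higher and 22.8% lower); over the 14 ligands without Cxcl3, 8 were called higher and 2 lower. The median difference was 0.60 over the 15 ligands and 0.12 over all genes. Relative to that median, which itself moved by -0.13 under median of ratios scaling, Cxcl1 differed by 2.28, Cxcl5 by 1.96, Ccl2 by 1.55, Ccl7 by 1.14, Cx3cl1 by 0.94, Cxcl14 by -1.34 and Cxcl12 by -2.43. That scaling turned the split of all calls from 4169 higher and 2696 lower into 3116 higher and 3394 lower, and the ligands' into 7 higher and 2 lower. The calls of Ccl25 (0.30, adjusted p = 0.0168), Cxcl16 (0.63, 0.0139), Cxcl10 (0.91, 0.02) and Cxcl3 (0.60, 0.0439) did not hold in several alternatives: without KO_let-7g replicate 1 the adjusted p was 0.0604 for Ccl25, 0.0576 for Cxcl16 and 0.159 for Cxcl3, without KO_let-7g replicate 2 it was 0.0839 for Cxcl10 and without WT_siCtrl replicate 1 it was 0.0525 for Ccl25, 0.065 for Cxcl10 and 0.129 for Cxcl3. Cxcl3 was also lost without KO_let-7g replicate 0 (adjusted p = 0.118), KO_siNr6a1 replicate 1 (0.053), KO_siCtrl replicate 1 (0.0522) or WT_siCtrl replicate 0 (0.1). It was lost with no filter too (0.0812), and Cxcl10 was lost without WT_siCtrl replicate 0 (0.0671). Without that library the Cxcl16 difference was 0.40 and kept its call (adjusted p = 0.0381). The Cxcl16 call was lost with library weights (0.0614) and with only the groups compared (0.0512). Each rescaling also ended the call of Ccl25, with an adjusted p of 0.0867 by quantiles, 0.0783 by the upper quartile and 0.152 by median of ratios. Without WT_siCtrl replicate 2, Ccl5 was called (0.95, adjusted p = 0.00621).

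In KO_siNr6a1 against WT_siCtrl cells 13 of 15 ligands were called, 10 higher and 3 lower, beside 54.3% of all genes (27.0% higher and 27.4% lower), with a median difference of 1.01 over the 15 ligands and -0.01 over all genes. Over the 14 ligands without Cxcl3, 9 were called higher and 3 lower. The highest differences were 3.15 ± 0.29 for Cxcl1 (adjusted p = 4.48e-06), 3.13 ± 0.20 for Cxcl5 (3.42e-07) and 2.17 ± 0.10 for Ccl2 (3.23e-08). Cxcl14 fell by 1.98, Cxcl12 fell by 1.02 and Ccl25 fell by 0.35. Cxcl10 and Ccl27a were not called. The call of Cxcl12 (adjusted p = 0.0242) was lost without KO_siNr6a1 replicate 0 (0.0845) or 2 (0.0633) and without WT_siCtrl replicate 1 (0.0936) or 2 (0.0732), and also after quantile scaling (0.073) and with no filter (0.0553). The call of Ccl17 (0.77, adjusted p = 0.0332) was lost without KO_siNr6a1 replicate 0 (0.0774) or 1 (0.117) and without WT_siCtrl replicate 0 (0.092) or 1 (0.129). It was also lost with no filter (0.0715) and with only the groups compared (0.0609). The call of Cxcl16 (0.60, 0.02) was lost without KO_siNr6a1 replicate 0 (0.0609) or WT_siCtrl replicate 0 (0.0571), with library weights (0.0633) and with only the groups compared (0.0563).

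Of the receptors for these ligands, 23 chemokine receptor genes were in the table and only Cxcr7, a scavenger receptor that takes up Cxcl12, was expressed. It had 5.71, 7.7 and 4.47 FPKM in KO_let-7g, 3.96, 4.38 and 3.13 FPKM in KO_siNr6a1, 7.77, 6.89 and 6.82 FPKM in KO_siCtrl and 0.444, 0.344 and 0.311 FPKM in WT_siCtrl libraries. It reached 1 FPKM only in KO libraries, so its difference between KO_siCtrl and WT_siCtrl cells is given with no filter on low values (2.58, adjusted p = 2.91e-06). It fell by 0.76 ± 0.16 in KO_siNr6a1 against KO_siCtrl cells (adjusted p = 0.00437). Cxcr4, the signalling receptor of Cxcl12, was below the limit for expression, with values of 0 in all KO libraries but 1, a KO_siNr6a1 library with 0.0303 FPKM, against 0.561, 0.668 and 0.458 FPKM in WT_siCtrl libraries. Cxcr2, the receptor of Cxcl1, Cxcl3 and Cxcl5, did not exceed 0.0137 FPKM, and Ccr2 did not exceed 0.00428 FPKM.

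Of 20 genes of NF-kB signalling (subunits, inhibitors, and kinase and adaptor genes), 19 were tested. Activators and inhibitors were counted together, so the counts do not give a direction of NF-kB activity. In KO_siCtrl against WT_siCtrl cells 10 rose and 4 fell, beside 54.3% of all genes called (29.1% higher and 25.2% lower). In front were Bcl3 (2.11, adjusted p = 6.09e-07), Nfkbiz (1.31, 3.45e-06) and Nfkb1 (0.87, 4.78e-06), a nuclear cofactor, another such cofactor and the p50 precursor. Rela, the p65 subunit, fell by 1.04 ± 0.10 in the same comparison (adjusted p = 5.4e-06), with 18.0, 15.8 and 19.5 FPKM in KO_siCtrl against 33.6, 39.6 and 39.1 FPKM in WT_siCtrl libraries. With the let-7g duplex 10 rose and 1 fell against KO_siCtrl cells, beside 45.6% of all genes called (27.5% higher and 18.2% lower). Rela (1.93, adjusted p = 5.34e-07), Ikbkg (1.60, 1.36e-06) and Traf2 (0.71, 3.88e-05) were in front. With the siRNA against Nr6a1 7 rose and 1 fell against KO_siCtrl cells, beside 29.4% of all genes called (13.2% higher and 16.3% lower). Rela (1.34, adjusted p = 1.7e-05), the feedback inhibitor Tnfaip3 (1.36, 0.000105) and Relb (0.96, 0.000612) were in front.

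Of 8 interferon transcription factors 7 were tested. Irf1, which binds the promoters of many interferon-induced genes, rose in KO_siCtrl against WT_siCtrl cells (0.80, adjusted p = 5.13e-05), in KO_let-7g against KO_siCtrl cells (0.53, 0.00123) and in KO_siNr6a1 against KO_siCtrl cells (0.44, 0.00743). In KO_let-7g against KO_siCtrl cells 4 rose and none fell, beside 27.5% of all genes called higher and 18.2% lower, among them Irf2 (0.75, adjusted p = 9.93e-05) and Irf7 (1.54, 0.00116). Irf7 had 5.59, 7.52 and 4.22 FPKM in KO_let-7g against 0.925, 1.83 and 1.2 FPKM in KO_siCtrl libraries. Against KO_siCtrl, 2 rose in KO_siNr6a1 cells, Irf1 and Irf2 (0.36, adjusted p = 0.0167), beside 13.2% of all genes called higher. In KO_siCtrl against WT_siCtrl cells Irf1 alone passed, beside 29.1% of all genes called higher and 25.2% lower.

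Of 21 inflammatory inducers and their receptors 15 were tested, and the cytokines among them were close to silent: Tnf reached 0.0486 FPKM, Il1b 0.0379 FPKM, Ifng 0.0214 FPKM and Ifnb1 0.108 FPKM at most, and Il17a was listed at 0. Il1a, also not expressed, was at 0.566, 0.986 and 0.482 FPKM in KO_siCtrl and at 0 in all 3 WT_siCtrl libraries. In KO_siCtrl against WT_siCtrl cells 5 rose and 5 fell, 10 of 15 beside 54.3% of all genes. Il1rn, which encodes the secreted antagonist of the interleukin-1 receptor, was at 0.087, 0.229 and 0.0914 FPKM in KO_siCtrl against 29.2, 115 and 61.4 FPKM in WT_siCtrl libraries. It reached 1 FPKM in the WT_siCtrl libraries and 1 KO library, and with no filter the difference was -5.73 (adjusted p = 4.31e-06). The interferon gamma receptor Ifngr1 fell (-1.08, adjusted p = 4.24e-06) and the TNF receptor Tnfrsf1b rose (1.06, 1.67e-06). Between KO_let-7g and KO_siCtrl cells 4 rose and 2 fell, 6 of 15 beside 45.6% of all genes, with Tnfrsf1b lower (-0.85, adjusted p = 2.01e-05) and Ifngr1 (0.77, 9.53e-05) and Ifngr2 (0.66, 0.000582) higher. Between KO_siNr6a1 and KO_siCtrl cells 5 rose and 1 fell, 6 of 15 beside 29.4% of all genes, with Tlr2 (0.98, adjusted p = 0.000668), Ifngr1 (0.52, 0.00264) and Tnfrsf1b (0.40, 0.00484) higher.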

How the data were processed

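The authors deposited 1 table of FPKM values for 21881 genes and 12 libraries, made with Cufflinks 1.0.3 and TopHat 1.2.0 on the mouse build mm9, per the submitters' processing notes; settings and strand use are not given. Since FPKM values are relative, abundant genes move all others, and read counts are not known. Groups came from the sample titles, which number the libraries 0, 1 and 2. The main analysis used limma 3.58.1 in R 4.3.3 on log2(FPKM + 1): genes with at least 1 FPKM in at least 3 libraries (11801), 1 coefficient per group over all 12 libraries, a variance trend, two-sided moderated tests and p-values adjusted within a comparison over all genes tested (Benjamini-Hochberg). The steps were tested on simulated data. The relative depth came from ratios between libraries of values under 0.3 FPKM, and pairs of libraries disagreed by at most 0.00114%.

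Every ligand found by the name rule is accounted for, and each expressed one is named. Up to 3 called genes with the smallest adjusted p were named for each list and comparison, with Dicer1, Nr6a1, Ppbp and Pf4 always given. Other values of list genes (Rela and Irf1 in further comparisons, Cxcr4, Cxcr2, Ccr2, Il1a and the cytokines) were chosen after their values were seen. The ligands and lists were chosen with earlier results of these data known. Same-numbered libraries deviated from their group means together (correlation across genes 0.0915 to 0.465 in 18 pairs). It was above 0.1 in every pair except replicate 2 of KO_siNr6a1 against WT_siCtrl (0.0915). Since 12 of 12 libraries also correlated best with their own number, the fit with the replicate number as a block is given beside a result where it changes a call. All other values come from the main analysis, which has no block; the pairing rests on the data alone and no label states it. Fits with other pseudocounts, filters, scalings, library weights, the replicate block, only the groups compared, no variance trend and each library left out were run beside it. Sequences came from RefSeq and GENCODE M21 for GRCm38, not from the build of the FPKM values.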

Additional observations from a re-analysis of the deposited data

How the results depend on the processing

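Of 90 differences of the 15 expressed ligands in 6 comparisons, 54 were called, and 40 of these kept their call and direction under all of the 23 alternative settings that gave a value. No called difference reversed. Of 2046 values under alternatives, 59 were no longer past the threshold, 34 newly were, and 26 of uncalled differences changed sign. In KO_siNr6a1 against KO_siCtrl cells the replicate block raised the ligands called to 5, against 3 without it, and all genes called to 5248, against 3474; library weights gave 5528. Counting only the 14 ligands at 1 FPKM in both genotypes, chosen after seeing the data, gave 9, 10 and 12 called in KO_siCtrl, KO_let-7g and KO_siNr6a1 against WT_siCtrl cells. The block lost no call of a ligand and gained 6. Leaving out 1 library gave 9 to 12 called ligands in KO_siCtrl against WT_siCtrl cells, beside 5713 to 6372 of all 11801 genes. In KO_let-7g against KO_siCtrl cells it gave 6 to 9 ligands beside 4569 to 5682 genes. For KO_siNr6a1 against KO_siCtrl it gave 3 to 4 beside 2539 to 3789. For KO_let-7g against KO_siNr6a1 it gave 7 to 11 beside 3849 to 5174. KO_let-7g against WT_siCtrl gave 8 to 12 beside 6112 to 6865, and KO_siNr6a1 against WT_siCtrl gave 10 to 13 beside 5529 to 6433.

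The changes of sign were small; ranges below are over the libraries left out in turn. For KO_siCtrl against WT_siCtrl cells Ccl27a was -0.03 with upper quartile scaling, -0.02 with median of ratios scaling, -0.13 with library weights and -0.26 to 0.24 over libraries left out, and Cxcl16 was -0.08 with library weights and -0.10 to 0.35. For KO_let-7g against KO_siCtrl cells the ranges were -0.10 to 0.02 for Ccl2, -0.38 to 0.12 for Ccl27a and -0.07 to 0.25 for Ccl5. For KO_siNr6a1 against KO_siCtrl cells library weights gave -0.14 for Cx3cl1 and -0.19 for Cxcl3, and the ranges were -0.06 to 0.09 for Cx3cl1, -0.09 to 0.34 for Cxcl12 and -0.12 to 0.18 for Cxcl5. For KO_let-7g against KO_siNr6a1 cells Ccl27a was -0.13 with library weights, Cxcl16 was -0.14 with quantile scaling, -0.07 with median of ratios scaling and -0.08 to 0.10 over libraries left out, and Nr6a1 was -0.03 with quantile scaling and -0.01 to 0.26. For KO_let-7g against WT_siCtrl cells the ranges were -0.46 to 0.04 for Ccl17 and -0.29 to 0.01 for Ccl27a. The causes were not tested. Depth limits the ligands below 1 FPKM, whose reads per library are not known.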
